A study of Mus musculus with 12 samples.

Results

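The regions described here are stretches of open chromatin that lay far from any protein-coding gene and that some libraries called and others did not. The assay was ATAC-seq, which marks accessible DNA by letting a transposase insert adapters into it, and the cells were mouse macrophages grown from bone marrow (BMDMs), with and without Baf60a. Autosomal peaks of 12 libraries were merged wherever they overlapped by at least 1 bp, which gave 144562 regions. A region was kept if it was under 2000 bp long, was called in 5 to 11 libraries, and had its centre outside every protein-coding gene and over 50 kb from any boundary of one. This left 3347 regions, 2.32% of all merged regions and 11.01% of the 30389 regions under 2000 bp that were called in 5 to 11 libraries (variable regions). The regions were selected on their calls (and on length and position), so the number of calls per region is a description and not a result. The other 27042 variable regions, inside genes or within 50 kb of one, serve for comparison.

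The study set BMDMs lacking Baf60a (KO) against wild-type (WT) BMDMs, with or without a 48 h exposure to 50 µg/ml of oxidised LDL (oxLDL). The ApoE KO cohort has 2 libraries in each of 4 groups: KO with oxLDL, WT with oxLDL, KO untreated and WT untreated. All 8 of its libraries carry floxed Baf60a (Baf60a f/f) on an ApoE KO background, and KO differs from WT by carrying Lyz2-Cre, a recombinase driven by a gene of myeloid cells. They were made from cryopreserved cells with a Nextera kit. The first cohort has 1 library in each of the same 4 groups, prepared by Omni-ATAC. Its labels give KO or WT with no allele and no ApoE status. The labels do not state that replicates are separate animals or cultures. The p-values below then measure only the spread between these libraries, which may be technical.

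Distal open regions of this kind are where enhancers lie, short elements that transcription factors bind and that can act on genes over long distances. Opening them in macrophages depends on lineage factors such as PU.1, which recruit remodelling complexes that move nucleosomes. One such complex is SWI/SNF, and Baf60a, the product of Smarcd1, belongs to it. OxLDL is taken up by scavenger receptors and turns macrophages into lipid-laden foam cells.

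Peak lists held 24397 to 44524 autosomal peaks in the ApoE KO cohort and 80394 to 138132 in the first cohort, and they hold no read counts, so the sequencing depth behind a call is unknown. Genotype and treatment were therefore compared within a cohort. Of 10 macrophage marker genes, 8 to 10 had a peak at most 1 kb away from their start or end in each ApoE KO cohort library, and all 10 did in the first cohort. The same count was 1 to 2 of 6 T and NK cell markers, 0 to 1 of 5 B cell markers and 1 of 5 neutrophil markers in the ApoE KO cohort. In the first cohort it was 2 to 3, 2 to 4 and 2 to 3 for those lists. Stromal and erythroid markers had 0 to 1 gene with a peak in any library. Their part in the results below was not tested.

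By the rule, protein-coding genes lay over 50 kb from the centre of each region. For most far variable regions the nearest RefSeq gene of any type was a long non-coding RNA (lncRNA), and a few regions covered the start of one. The promoters of 4 such lncRNAs are shown because they are the part of these regions whose sequence is known. They run from 250 bases before the gene's start to 50 bases after it, 5′ to 3′ on the gene's strand, from RefSeq on the GRCm38.p6 assembly, which is mm10. Mexis, in mouse an LXR-induced lncRNA that increases transcription of the cholesterol exporter gene Abca1, was chosen for its role. Lncpint, a p53-induced lncRNA, Mir99ahg, the host gene of microRNAs of the miR-99 family, and Gm36408 were chosen after their values were seen. Capitals mark GAGGAAG, part of the PU.1 site, or CACGTG, the E-box.
Mexis, chr4:53270183-53270482, minus strand: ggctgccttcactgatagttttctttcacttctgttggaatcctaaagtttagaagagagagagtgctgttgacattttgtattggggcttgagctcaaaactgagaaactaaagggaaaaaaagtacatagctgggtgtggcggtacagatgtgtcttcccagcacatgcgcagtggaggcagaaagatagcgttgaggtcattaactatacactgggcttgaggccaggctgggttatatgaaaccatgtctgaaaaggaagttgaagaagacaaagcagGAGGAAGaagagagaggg
Lncpint, chr6:31218425-31218724, minus strand: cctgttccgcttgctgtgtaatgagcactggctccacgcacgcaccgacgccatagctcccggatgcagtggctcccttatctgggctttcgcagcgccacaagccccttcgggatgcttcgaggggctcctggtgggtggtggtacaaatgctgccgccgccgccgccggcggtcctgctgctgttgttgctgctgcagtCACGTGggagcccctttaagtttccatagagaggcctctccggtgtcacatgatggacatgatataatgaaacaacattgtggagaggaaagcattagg
Mir99ahg, chr16:77329078-77329377, plus strand: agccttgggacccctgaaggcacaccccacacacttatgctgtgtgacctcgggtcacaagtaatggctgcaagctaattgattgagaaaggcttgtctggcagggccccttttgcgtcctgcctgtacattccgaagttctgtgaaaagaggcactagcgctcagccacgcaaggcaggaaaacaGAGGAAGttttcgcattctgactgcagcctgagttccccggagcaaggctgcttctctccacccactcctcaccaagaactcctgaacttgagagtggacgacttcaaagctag
Gm36408, chr6:66272315-66272614, minus strand: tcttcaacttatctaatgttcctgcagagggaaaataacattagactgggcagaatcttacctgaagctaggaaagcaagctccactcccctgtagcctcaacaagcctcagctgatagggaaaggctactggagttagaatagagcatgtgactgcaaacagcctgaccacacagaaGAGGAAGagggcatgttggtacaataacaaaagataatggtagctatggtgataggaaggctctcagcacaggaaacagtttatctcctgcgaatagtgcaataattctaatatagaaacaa

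The region over the Mexis start (chromosome 4, 53269724 to 53270428) lay 110 kb from Abca1 and covered the part of the printed window nearest the gene, with the capitals inside it. It had a call in 3 of 4 KO libraries but 0 of 4 WT libraries of the ApoE KO cohort, and in all 4 first-cohort libraries. Together, the 2 far variable regions nearest to Abca1, this region included, had 4 calls in KO and 2 in WT libraries of the ApoE KO cohort. The WT calls were thus all in the other region. The Lncpint start had calls in 3 of 4 KO but 2 of 4 WT libraries, and the Mir99ahg and Gm36408 starts each in 4 of 4 KO libraries and 3 of 4 WT ones. Protein-coding promoter windows cannot overlap a far region, since the rule keeps region centres over 50 kb from coding genes. Of the 3347 far variable regions, 87 (2.60%) overlapped a promoter window, all of them of lncRNAs, with 91 such genes in all. These genes have 105 windows in the RefSeq table, some of which overlap each other. On either strand, GAGGAAG stood in 27.6% of the 105 windows, against 13.7% of all 11311 lncRNA windows and 13.4% of all 31396 windows. TGANTCA, the AP-1 site, stood in 16.2% of the 105, against 9.25% of lncRNA windows and 7.84% of all windows. AGGNGGC, part of the CTCF site, stood in 8.57%, against 21.5% and 29.4%, and CACGTG in 7.62%, against 5.83% and 7.14%. Motifs can share end bases, and a window with several counts under each. The 105 windows were selected by overlap with a called region, while the windows they are set against were taken regardless of calls. Windows in other open regions were not compared, so these shares cannot be read as particular to the far variable regions. A match of letters is not a binding site.

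These regions were mostly called throughout the first cohort and in part of the ApoE KO cohort. All 4 first-cohort libraries called 3140 of them (93.8%, against 96.4% of the other variable regions). The far regions had a median length of 653 bp (692 bp in the other variable regions) and a range of 164 to 1926 bp. Their centres lay a median of 107 kb from a gene, with quartiles of 70.7 and 184 kb. Within each library's list the authors' score ranked their peaks at a median percentile of 20.3 to 35.6 in the ApoE KO cohort and 50.6 to 76.2 in the first cohort. Peaks of the other variable regions had similar medians, 20.3 to 33.8 and 54.7 to 73.8 in the same cohorts. Those of the 1201 far regions that all 12 libraries called had medians of 54.8 to 78.4 and 82.0 to 92.2. The authors' fold enrichment per peak was given in the ApoE KO cohort only. Its medians were 2.93 to 3.65 in the far variable regions and 2.77 to 3.45 in the other variable ones. In the always-called far regions they were 4.03 to 6.80. Around the limits of the rule, 910 far regions were called in 5 libraries and 2232 in 4, while 408 were called in 11. The length limit left out 7 far regions of 2000 bp or more, and 41 of those kept were within 500 bp of it. There were 442 regions at 50 to 60 kb from a gene and 613 at 40 to 50 kb.

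On average, KO libraries of the ApoE KO cohort called more of these regions than WT libraries. With oxLDL, KO libraries called 49.9% and 45.9% of the 3347 regions, and WT libraries 27.0% and 15.98%. Untreated KO libraries called 79.7% and 46.3%, and untreated WT libraries 28.3% and 54.1%. The genotypes did not overlap with oxLDL (KO 47.9 ± 2.83%, WT 21.5 ± 7.77%, SD, n = 2 each). They overlapped without it (KO 63.0 ± 23.6%, WT 41.2 ± 18.3%, SD, n = 2 each), where the first KO replicate was far above the second. Over both treatments KO libraries called 55.5% and WT libraries 31.3%, a difference of 24.1 percentage points, which was 15.8 without the first untreated KO replicate, 26.4 among oxLDL libraries alone and 12.5 where peaks had to cover at least 50% of a region to count. The deposited names of both untreated WT libraries and the first KO replicate with oxLDL carry a mark that the other 5 lack, so genotype and mark cannot be told apart among untreated libraries. In the other variable regions the difference was 18.6 points (KO 51.7%, WT 33.2%). There too the genotypes did not overlap with oxLDL (KO 45.2% and 44.7%, WT 26.6% and 16.4%). They overlapped untreated (KO 75.5% and 41.5%, WT 30.1% and 59.7%), as in the far regions. In the first cohort, with 1 library per group and no replicate check, KO libraries called 97.8% with oxLDL and 99.0% untreated, and WT libraries 94.9% with oxLDL and 98.6% untreated. That is a difference of 1.61 points, against 0.640 in the other variable regions.

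**Figure D1:**
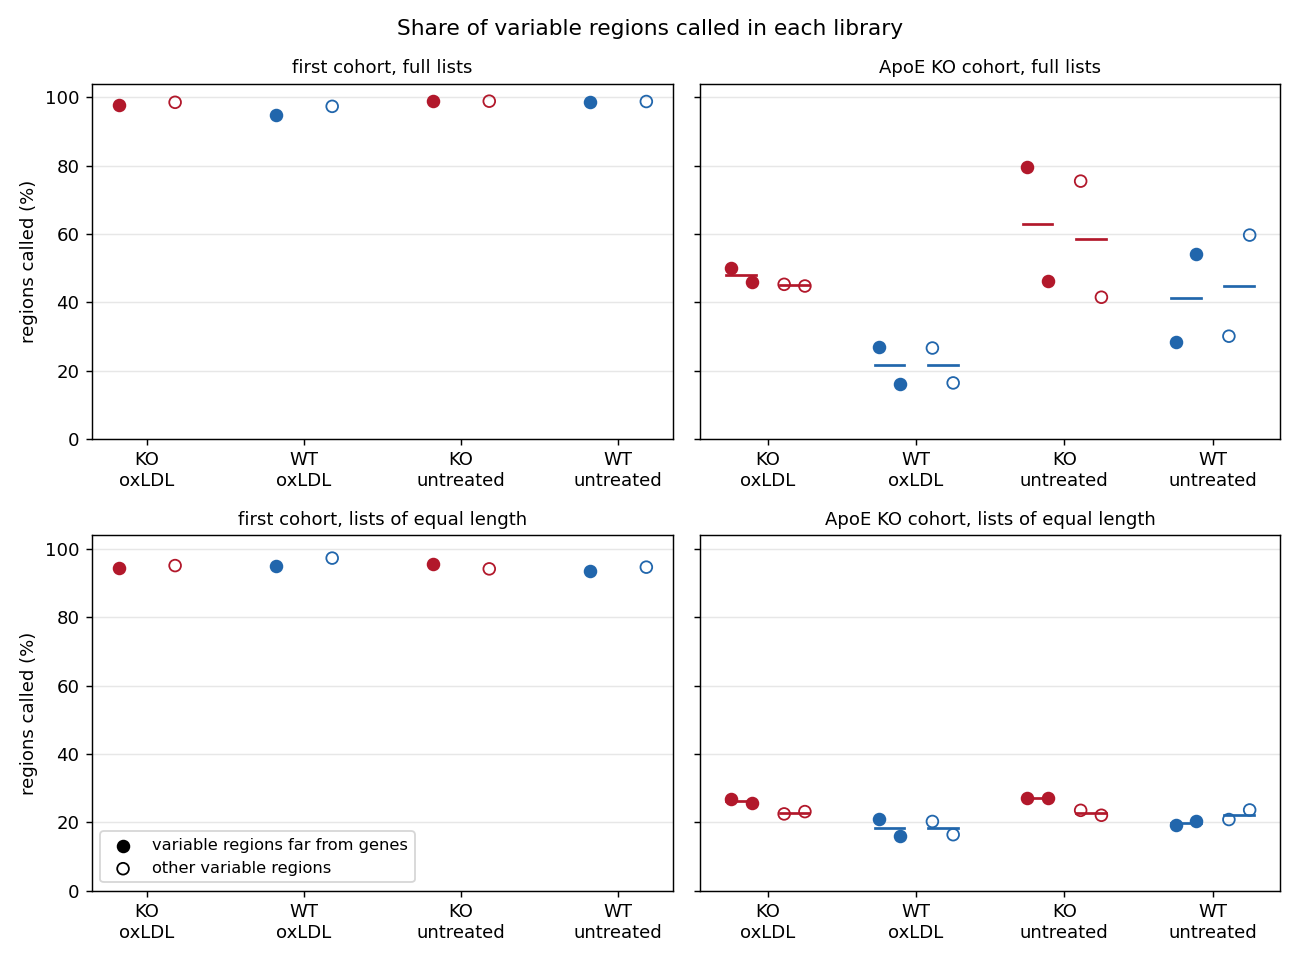
Percent of variable regions called in each library, far from genes (filled) and other (open), for KO (red) and WT (blue), with the mean as a line where a group has 2 libraries. In the ApoE KO cohort with lists of equal length, the filled KO points sit between 25.7 and 27.1% and the filled WT points between 15.98 and 20.9%.

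The length of the lists moved with this result: in the ApoE KO cohort the longest list called most far regions (79.7% with 44524 peaks) and the shortest fewest (15.98% with 24397 peaks). When each ApoE KO cohort list was reduced to its 24397 peaks of highest score, KO libraries called 26.9% and 25.7% with oxLDL and 27.0% and 27.1% untreated. WT libraries called 20.9% and 15.98% with oxLDL and 19.3% and 20.5% untreated. All 4 KO libraries then lay above all 4 WT libraries, and the difference was 7.52 points. In the other variable regions the same lists gave KO libraries 22.1 to 23.5% and WT libraries 16.4 to 23.6%, which overlapped, and a difference of 2.53 points. In the first cohort, reduced to 80394 peaks a list, the KO minus WT difference was 0.687 points in the far regions and -1.35 in the others.

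The genotype difference was largest in the regions farthest from genes. The 124 regions over 500 kb from a gene were called at 58.9% and 48.4% in KO libraries with oxLDL and at 89.5% and 58.1% in untreated KO libraries. WT libraries called 33.1% and 15.3% of them with oxLDL and 25.8% and 47.6% untreated. Every KO value was above every WT value, and the means differed by 33.3 points (KO 63.7%, WT 30.4%). The difference was 23.2 points in the 1567 regions at 50 to 100 kb, 24.5 in the 1049 at 100 to 200 kb and 23.9 in the 607 at 200 to 500 kb. Variable regions inside genes differed by 19.3 points, those up to 10 kb outside by 15.8 and those at 10 to 50 kb by 18.8. With lists of equal length the difference was 2.76 points inside genes, 0.787 up to 10 kb, 3.43 at 10 to 50 kb, 6.14 at 50 to 100 kb, 7.89 at 100 to 200 kb, 8.94 at 200 to 500 kb and 14.9 beyond (KO 36.5%, WT 21.6%). The first cohort had its highest full-list difference, 3.23 points, in the same farthest class, against 0.545 to 1.86 points in the others. It came from the libraries with oxLDL alone (KO 96.8%, WT 89.5%), where the WT library had the shortest list of that cohort. Untreated, the KO library was below the WT one in this class (98.4% and 99.2%). Regions are not replicates, so no test over them was made.

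**Figure D2:**
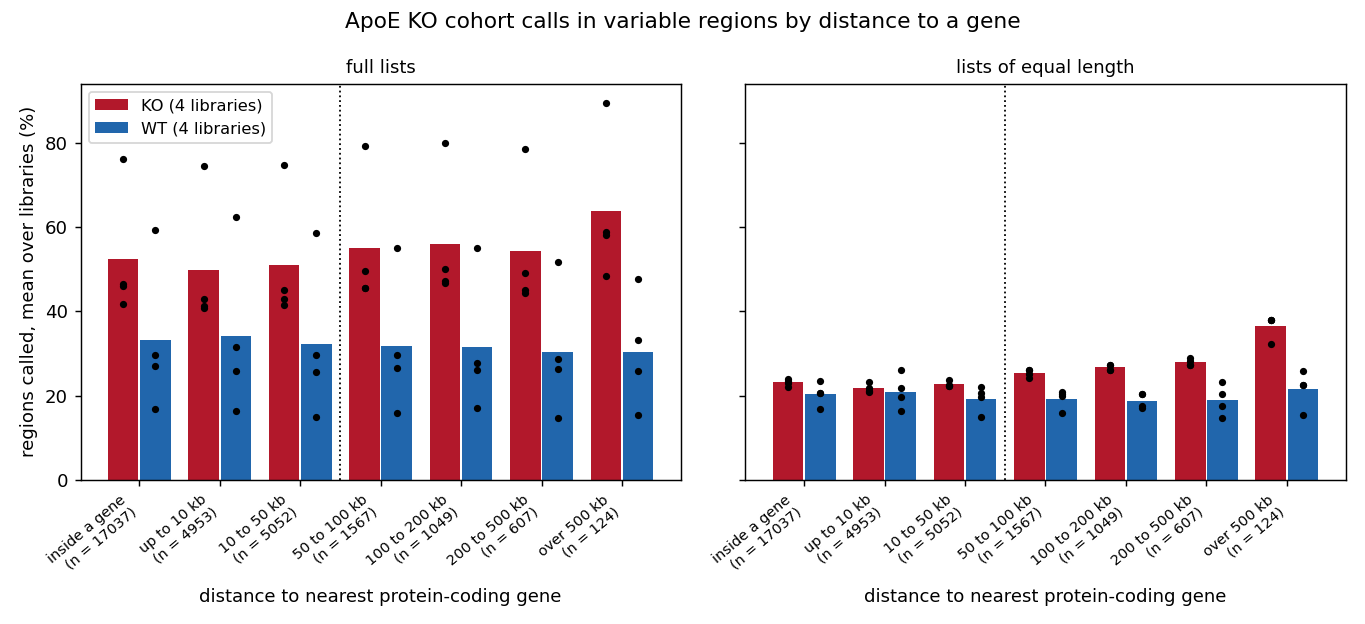
Percent of variable regions called in the ApoE KO cohort by distance to the nearest protein-coding gene, with bars for the mean of 4 KO (red) and 4 WT (blue) libraries and dots for single libraries, and with the far regions right of the dotted line. The KO and WT bars stand 33.3 points apart over 500 kb from a gene with full lists and 14.9 points with lists of equal length.

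OxLDL went with fewer calls. In the ApoE KO cohort the libraries with oxLDL called 34.7% of the far variable regions and the untreated libraries 52.1%, a difference of -17.4 points, close to the -18.4 points of the other variable regions. The difference was -15.1 points among KO libraries and -19.7 among WT libraries. It was -9.08 points without the first untreated KO replicate and -11.0 without the second untreated WT replicate. It was -9.31 points where peaks had to cover at least 50% of a region. With lists of equal length it was -1.13 points. In the first cohort it was -2.45 points with full lists and 0.0896 points with lists of equal length, so that the sign turned.

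The share of KO calls was also read by the number of ApoE KO cohort libraries that called a region. Of the 3140 regions with calls throughout the first cohort, 810 had a single call in the ApoE KO cohort, and 75.6% of those single calls were in KO libraries. This share rested on the first untreated KO replicate, which made 374 of the 810 calls (46.2%), and of the 436 single calls of the other 7 libraries 54.6% were in KO libraries. The KO share was 72.0, 69.0, 68.4, 65.9 and 59.5% in regions with 2 to 6 calls and 55.7% in the 404 regions with 7 calls. Other variable regions went down in the same order, with 68.0% at 1 call and 54.9% at 7. With 4 libraries of each genotype the share can be anything up to 4 calls, but at most 66.7% at 6 and 57.1% at 7, so part of this order is set by arithmetic and no trend is read from it. The single calls of the other libraries numbered 120 in the second untreated WT replicate and 17 in the second WT replicate with oxLDL. Where 1 call was missing, the second WT replicate with oxLDL, the shortest list, lacked it in 200 of 404 regions (49.5%), and the first untreated KO replicate in 0.

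**Figure D3:**
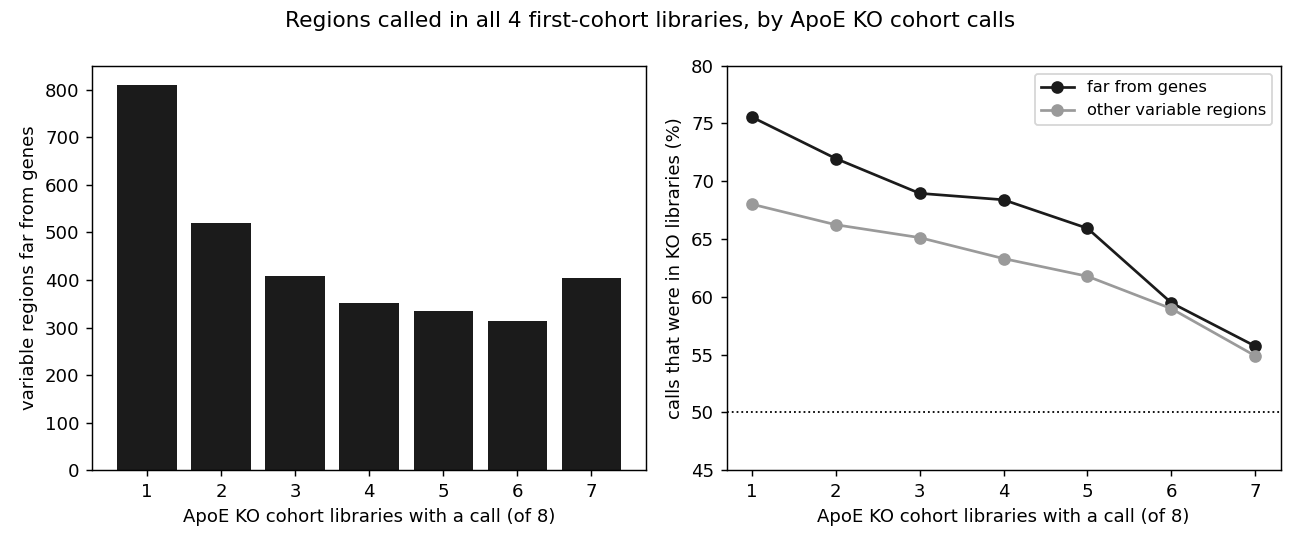
Number of far variable regions called in all 4 first-cohort libraries by how many of the 8 ApoE KO cohort libraries called them (left), and the percent of those calls that were in KO libraries (right, dotted line at equal shares), for far (black) and other (grey) variable regions. The black line starts at 75.6% for 1 call (54.6% without the first untreated KO replicate) and ends at 55.7% for 7 calls, where 57.1% is the most that 4 KO libraries allow.

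Single regions were tested with a two-sided exact permutation test, exchanging KO and WT among libraries of the same cohort and treatment. No region of the 144562 passed an adjusted p of 0.05 (0 called, a background of 0%). The smallest p these arrangements allow is 0.0139, and for a pass 27.8% of all regions would have to reach it. At an unadjusted p of at most 0.05 in this test, 2 far variable regions (0.0598%) were called more often in KO libraries (background 0.0428% of variable regions). In WT libraries 0 were called more often (background 0%). Counting direction alone, 2425 regions (72.5%) had more KO than WT calls and 438 (13.1%) had fewer, against 64.7% and 18.01% of the other variable regions. Among all merged regions the shares were 48.7% and 7.85%. The rule used these same calls, so the direction counts are descriptions. With calls throughout the first cohort, 810 regions entered on a single ApoE KO cohort call, 374 of them through the first untreated KO replicate. For treatment, also by an exact permutation test over all regions, 0 regions passed after adjustment (background 0%). At an unadjusted p of at most 0.05 in this test, 0 far regions were called more often with oxLDL (background 0%). In untreated libraries 4 (0.120%) were called more often (background 0.0527%). More calls with oxLDL were seen in 626 regions (18.7%) and fewer in 2147 (64.1%), against 17.9% and 65.5% of the other variable regions. Among all merged regions these shares were 7.88% and 57.2%.

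The most one-sided regions by genotype were all KO-sided. At least 5 of 6 KO libraries and at most 1 of 6 WT libraries called 10 far regions (0.299%, against a background of 0.178% of variable regions), and the opposite pattern had 0 (background 0.00658%). The region 413 kb from Cntn3, which encodes a contactin of neuronal adhesion (chromosome 6, 102977103 to 102977608), had calls in all 6 KO libraries and in none of the WT. The authors' fold enrichment of its peaks was 2.55 to 4.19. Other regions lay 51.3 kb from the homeobox gene Hlx, 185 kb from the ephrin receptor gene Epha7, 120 kb from the deubiquitinase gene Usp24 and 73.0 kb from Rassf9. Those nearest to Arglu1 (151 kb) and Fam155a (213 kb) lie on chromosome 8 in the interval between these genes. The last 3 lay 397 kb from Tafa2, 230 kb from 4930571K23Rik and 122 kb from Epb41l4a. Because nearly all far regions were called throughout the first cohort, this set rests on the few missing there in a WT library. It held 169 regions without the first-cohort untreated WT library, 160 without the first-cohort WT library with oxLDL, and 0 with lists of equal length. Omission of single KO libraries of the ApoE KO cohort gave 17 to 30 and leaving out its second untreated WT replicate gave 16.

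Within the ApoE KO cohort, 37 far regions (1.11%, near the background of 0.908%) were called in all 4 KO and no WT libraries. All 4 WT and no KO libraries called 0 (background 0.0132%). The 5 of the 37 with the highest score percentile were called in all 4 first-cohort libraries as well. They lay 123 kb from Klf4, a transcription factor of monocyte differentiation (chromosome 4, 55655324 to 55655752), and 599 kb from Negr1, a neuronal adhesion gene (chromosome 3, 155962336 to 155962916). The other three lay 230 kb from the co-repressor gene Zfp703, 198 kb from Bcl11a, a zinc finger factor of lymphoid and erythroid cells, and 479 kb from Alcam, a leukocyte adhesion gene. The fold enrichment of their peaks, as the authors gave it, was 2.71 to 4.91 across the 5. In the first cohort 4 far regions (0.120%, background 0.0625%) were called in both KO and neither WT library. The reverse had 0 (background 0.023%).

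By treatment the one-sided sets over both cohorts lay on the untreated side with full lists. At most 1 of 6 oxLDL libraries and at least 5 of 6 untreated libraries called 14 far regions (background 0.191%), and 0 had the opposite pattern (background 0%). The 10 of highest score percentile lay nearest to Mrps30, Dscam, Emp1, Gmds, Emcn, Rpl38, Arrdc4, Tshz1, Erbb4 and Cxadr, at 61.7 kb (Emp1) to 298 kb (Tshz1). This set of 14 (0.418% of the far regions) was 4.30% without the first-cohort KO library with oxLDL and 138 regions without the first-cohort WT library with oxLDL. It held 30 without the second untreated KO replicate of the ApoE KO cohort, 38 and 37 without its first and second untreated WT replicates, and 1 with lists of equal length, where the opposite, oxLDL-sided pattern had 3. Within the ApoE KO cohort, 27 regions (0.807%, near the background of 0.76%) were called in no oxLDL and all 4 untreated libraries. The reverse had 0 (background 0.00329%). Klf6, a transcription factor of inflammatory macrophage activation, was nearest to 2 of the leading 5, at 559 kb and 81.8 kb (chromosome 13, 5301956 to 5302797 and 5779406 to 5779896). The others lay 50.2 kb from the histone chaperone gene Nap1l1, 85.5 kb from Map2k6, a kinase gene upstream of p38, and 69.6 kb from the pituitary factor gene Pou1f1. In the first cohort 4 regions (0.120%, near the background of 0.105%) were called in both oxLDL and neither untreated library. Another 23 (0.687%, background 0.299%) were called in neither oxLDL and both untreated libraries.

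**Figure D4:**
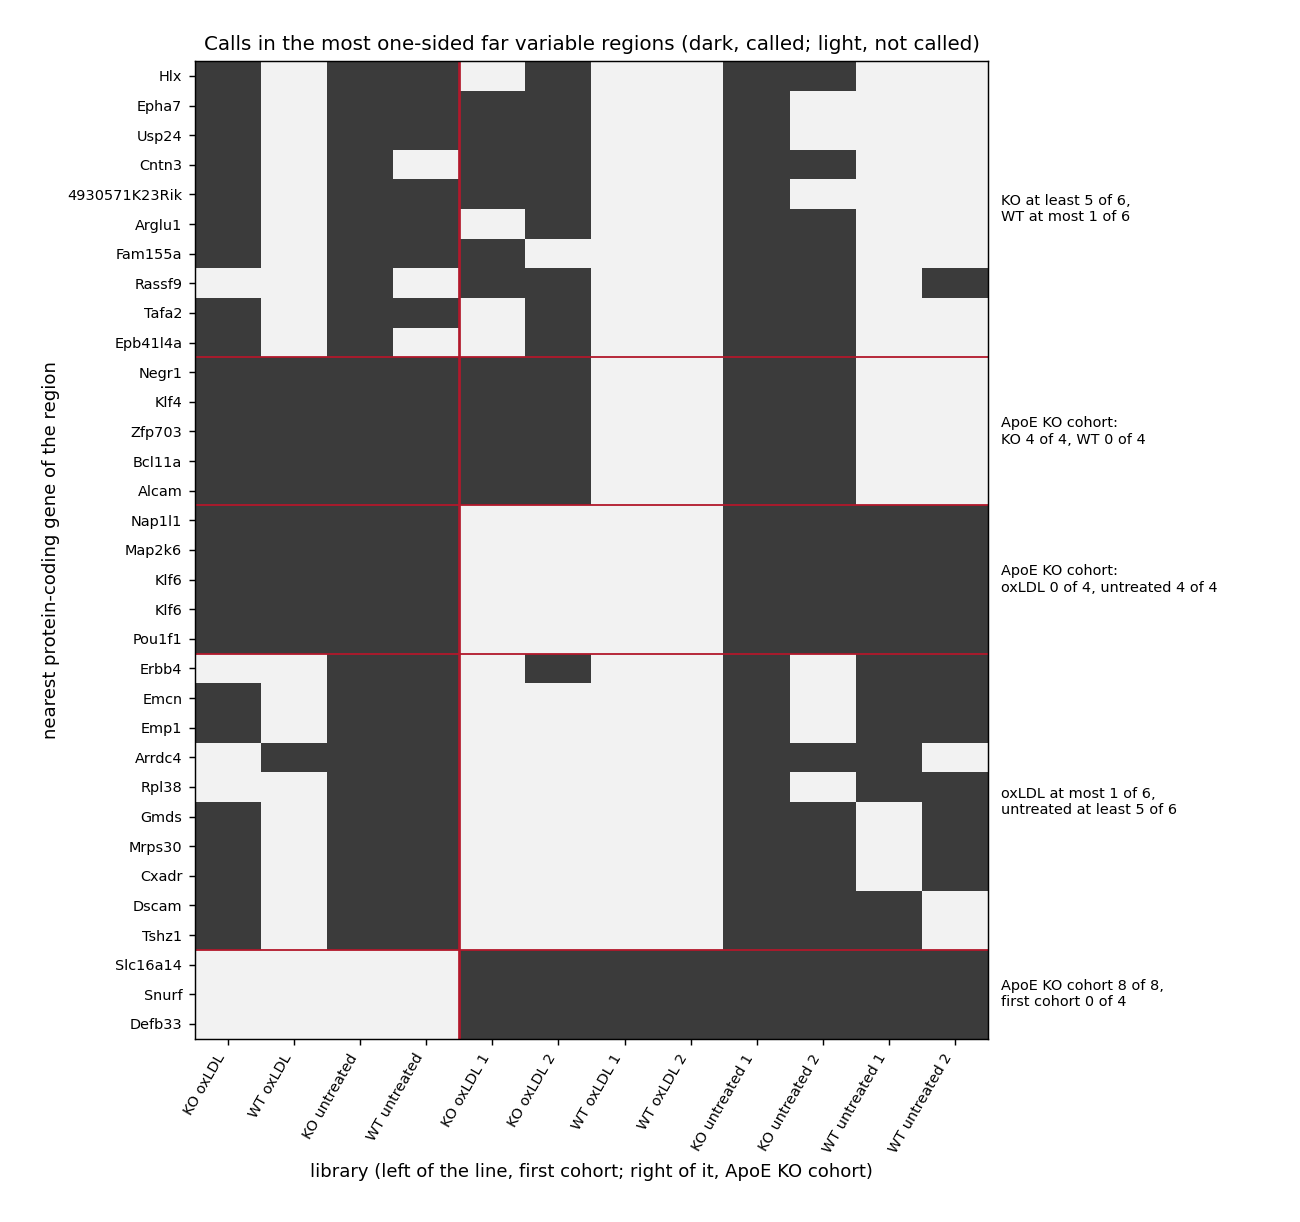
Calls (dark) of single far variable regions, named by the nearest gene, in the 4 first-cohort libraries (left of the vertical line) and the 8 ApoE KO cohort libraries (right of it), in blocks by the pattern that selected them. The Klf4, Negr1, Zfp703, Bcl11a and Alcam regions are dark in all 4 KO and light in all 4 WT libraries of the ApoE KO cohort, and dark throughout the first cohort.

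The 2 cohorts also differed with no regard to genotype. All 8 ApoE KO cohort libraries and none of the first cohort called 3 regions (0.0896%, below the background of 0.174%). They lay near Slc16a14 (55.3 kb), Snurf (213 kb) and Defb33 (78.5 kb). ApoE status, protocol and cell handling all differ or may differ between the cohorts and cannot be told apart. The 6 regions of highest score percentile included one 282 kb from Id2 (chromosome 12, 25377975 to 25378576), the gene of an inhibitor of basic helix-loop-helix factors. It was missing only in the first untreated WT replicate. A region of 271 bp near Stmn2 was called in 5 ApoE KO cohort libraries and no first-cohort library. The others were near Polr1a and Ccnd2, and a pair lay before Alkbh8 at the start of chromosome 9 (3006738 to 3006901 and 3023465 to 3023664). Peaks in the second of this pair reached a fold enrichment of 17.8 to 26.3 by the authors' values, those in the first 5.56 to 8.57. The pair is only 164 and 200 bp long. Peaks were not filtered here for stretches of artefact signal, and whether this pair is such a stretch was not tested. The region farthest from any gene lay 1633 kb from Pabpc4l and was called in 11 libraries, and the next lay 1502 and 1467 kb from Slc10a2, 1249 kb from Zeb2 and 1224 kb from Cited2.

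The far regions were spread over many genes. Their nearest protein-coding genes numbered 1284, of which 603 had 1 region, and 37 genes with at least 10 regions accounted for 475 of them (14.2%). Zfp386, a zinc finger gene, headed this count with 23, followed by Id2 and Klf4 with 20 each, Cited2, a co-regulator that binds CBP and p300, and Klf6 with 19 each, and Adgrl2 and Eea1 with 17 each. The 20 Klf4 regions were called 7 and 7 times in the KO libraries with oxLDL and 4 and 2 times in the WT libraries with oxLDL. Untreated, they were called 16 and 11 times in KO libraries and 4 and 8 times in WT libraries. KO and WT overlapped in neither treatment, with 51.3% of possible calls made in KO and 22.5% in WT libraries. Across treatments they did overlap. Regions nearest to Myc, Zfp703 and Pik3r1 did not overlap within a treatment either, while those nearest to Klf6 overlapped in both and those nearest to Id2 when untreated. The other genes read by library did not separate in both treatments. KO and WT overlapped or tied in both at Runx1 and Cebpb. They did so in a single treatment at Zfp386, Cited2, Adgrl2, Eea1, Tbl1xr1, Nrp1 and Prdm1. How many of the 1284 genes separate in this way was not counted, and these calls by gene were not read with lists of equal length. Myc, a growth-promoting transcription factor, had 14 regions with 27 calls in KO and 9 in WT libraries, and Pik3r1, a regulatory subunit of PI3 kinase, had 10 with 27 and 8. Around Klf6 the genotypes were closer, with 29 calls in KO and 26 in WT libraries, as they were around Jarid2 (13 and 12) and Runx1 (16 and 17). The nearest gene need not be one that a region acts on.

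**Figure D5:**
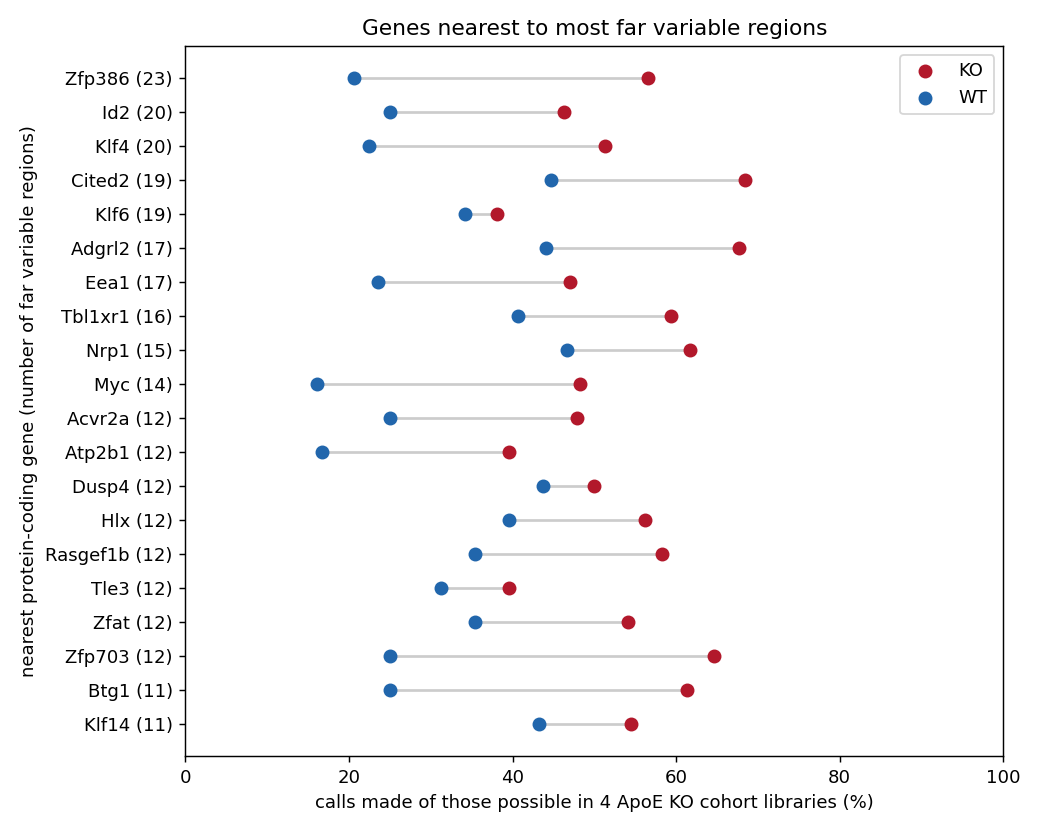
Percent of possible calls made by the 4 KO (red) and 4 WT (blue) libraries of the ApoE KO cohort in the far variable regions nearest to each gene, for the 20 genes with most such regions (number in brackets). The KO point lies right of the WT point for all 20, by 35.9 points at Zfp386 and by 3.95 points at Klf6.

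The 23 regions nearest to Zfp386 lay in the immunoglobulin heavy chain locus, whose gene segments are not counted as protein-coding genes in the RefSeq table. This locus was looked at after the values were seen. It spans 2754 kb of chromosome 12 (113256204 to 116009954) and held 29 far variable regions, 21 of which overlapped a gene segment. KO libraries called 55.2% and 48.3% of the 29 with oxLDL, and WT libraries 24.1% and 13.8%. Untreated KO libraries called 79.3% and 44.8%, and untreated WT libraries 10.3% and 37.9%. Every KO value was above every WT value, and 24 of the 29 regions (82.8%) had more KO than WT calls and 1 had fewer, against 71.5% with more and 12.9% with fewer among all far variable regions. The first cohort called 27 of the 29 in all 4 libraries. The T cell receptor alpha and delta locus on chromosome 14 held 11 far variable regions, with 31 calls in KO and 16 in WT libraries of the ApoE KO cohort. The T cell receptor beta locus held 2 (6 and 2 calls) and the immunoglobulin kappa locus 1, with 3 calls in KO and 4 in WT libraries. The lambda and T cell receptor gamma loci held 0. Calls in these loci were not read with lists of equal length.

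Gene lists were read by the gene nearest to each region, and no region of any list passed an adjusted p of 0.05 in the exact permutation test. Regulators of macrophage identity were nearest to 109 far variable regions, at 19 of 54 genes. Their share of 3.26% was near the 3.33% among always-called far regions and the 3.03% among far regions called in 1 to 4 libraries. KO libraries of the ApoE KO cohort made 45.4% of possible calls in them and WT libraries 30.5%, and 62 regions (56.9%) had more KO than WT calls and 21 had fewer, against 72.5% with more among all far variable regions. Besides Klf4, Id2 and Klf6 this list named Zeb2 with 8 regions (16 calls in KO, 6 in WT libraries), Runx1 with 9 (16 and 17), Maf with 7 (20 and 17) and Cebpb with 6 (13 and 11). First-cohort libraries called all 109. Developmental transcription factors were nearest to 130 regions (KO 55.8%, WT 28.5% of possible calls), of which 100 had more and 17 fewer KO calls, and they included Zfp703 with 12 regions (31 calls in KO, 12 in WT libraries) and Prdm1 with 8 (9 and 4).

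Neural adhesion and synapse genes were nearest to 21 regions (KO 67.9%, WT 28.6% of possible calls), of which 18 (85.7%) had more KO than WT calls and 1 had fewer. AP-1 and NF-kB factors were nearest to 16 (KO 73.4%, WT 45.3%), of which 14 (87.5%) had more and 1 had fewer. Among them were Jun with 5 regions (16 calls in KO, 7 in WT libraries) and Tnfaip3, an inhibitor of NF-kB signalling, with 6 (13 and 9). Lipid handling genes were nearest to 14 (KO 51.8%, WT 26.8%), with 9 (64.3%) more and 1 fewer. These were Fabp5, a fatty acid binding protein, with 4 regions, Insig1, a brake on sterol synthesis, with 3, Abca1 and Mylip, the degrader of the LDL receptor, with 2 each, and Acsl1, Ch25h and Nfe2l2 with 1 each. Receptors of chemokines and cytokines were nearest to 10 (KO 65%, WT 45%), 7 of them at Cxcr4. Inflammatory mediators were nearest to 5 regions (KO 45%, WT 40%), near Il6, Il12a, Il12b and Ptgs2, and cadherins and protocadherins to 5 (KO 75%, WT 50%). More KO than WT calls were seen in 7 receptor, 2 mediator and 4 cadherin regions, and fewer in 2, 2 and 0. For comparison, all far variable regions had 55.5% in KO and 31.3% in WT libraries. Of them 72.5% had more KO than WT calls and 13.1% had fewer.

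The spacing of far variable regions along the chromosome was described without a comparison. Chained at gaps of up to 50 kb, they formed 1586 clusters, with 866 regions alone (25.9%) and 963 regions in 140 clusters of 5 or more. The cluster with most regions, 16 within 274 kb between Id2 and Rnf144a (chromosome 12, 25165358 to 25439546), had 30 calls in KO and 17 in WT libraries of the ApoE KO cohort. Between Bcl2l11, which encodes the death-promoting protein Bim, and Spdye4c, 15 regions (chromosome 2, 128249254 to 128465956) had 27 calls in KO and 23 in WT libraries. They run across Morrbid, in mouse a lncRNA that represses Bcl2l11 in short-lived myeloid cells. The next 3 clusters held 13 regions each: between Eea1 and Btg1 (25 calls in KO, 13 in WT libraries), between Trib1 and 4933412E24Rik (33 and 19), and between Saraf and Dusp4 (24 and 22). Trib1, a pseudokinase, is needed in mouse for a class of tissue-resident macrophages. All regions of these 5 clusters were called in all first-cohort libraries.

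Of the 3347 regions, 815 (24.4%) had their centre inside a lncRNA gene, against 26.7% of always-called far regions and 22.6% of far regions called in 1 to 4 libraries. They lay in 546 lncRNA genes, and a lncRNA was the nearest RefSeq gene of any type for 2227 regions (66.5%). The rule keeps protein-coding genes over 50 kb away, so this last share is partly set by it, and no background was taken. A930011G23Rik near Rasgef1b held 12 (28 calls in KO, 17 in WT libraries of the ApoE KO cohort) and Morrbid 10 (20 and 16). Lncpint held 8 (21 and 14), 2610035D17Rik 8 (21 and 8), Mir99ahg 6 (15 and 6) and Pvt1, a neighbour of Myc, 5 (5 and 1).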

How the data were processed

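Peak lists of 12 ATAC-seq libraries on genome build mm10 were analysed. Sequencing was paired-end at 150 bases, per the labels' protocols. Per the submitters' processing notes, the peak caller was MACS2 in the ApoE KO cohort and MACS3 in the first cohort. The notes also name Bowtie2 2.3.4.1 and SAMtools 1.2, besides bedtools 2.28.0, Picard and read trimmers. Parameters, duplicate removal and any read shift: not given in the sources used here. Each deposited file holds 1 library's peaks, so peaks were called per sample. The authors gave every peak a whole-number score, of at least 13. For the ApoE KO cohort each deposited peak also has a fold enrichment by the authors. The authors' -log10 p and -log10 q in these lists were not used. These values were used only to describe, rank or filter peaks within a list. No list holds reads, so depth is unknown, and a call is a caller's threshold decision that moves with depth.

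Peaks on 19 autosomes were merged, and a library called a region if it had a peak in it. Genes were placed with RefSeq's GRCm38.p6 table, which has 20665 autosomal protein-coding genes; a gene boundary means one of these. The score percentile of a region is the mean percentile of its peaks within their lists. Groups were taken from the labels. Calls per region were tested over all 144562 merged regions with an exact permutation test within strata of cohort and treatment (or genotype), in 144 arrangements, with Benjamini-Hochberg adjustment. The test was first tried on simulated data. Lists of equal length, a score of at least 30, peaks covering at least 50% of a region, a distance over 100 kb, genes of any type and leaving out each library were alternatives. After the data were seen, leaving out the 3 ApoE KO cohort libraries whose deposited names carry a mark of their own was added. The regions, gene lists, clusters and tests were chosen with earlier results of these data known. Named were all regions of a one-sided set (the 10, or within the ApoE KO cohort the 5, of highest score percentile where more), the 6 of highest percentile, the 5 farthest from a gene, the 5 largest clusters and regions near macrophage regulators. Motifs were read only in RefSeq promoter windows (250 bases before to 50 after a gene start). Software versions were matplotlib 3.10.9, scipy 1.17.1, pandas 2.3.3 and numpy 2.4.6 under Python 3.11.15.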

Additional observations from a re-analysis of the deposited data

Results flagged for a closer look

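The ApoE KO cohort has 4 KO libraries. The first untreated replicate called 79.7% of the far variable regions, while the other 3 called 45.9 to 49.9%. Its gap to the next library was 0.882 of the whole range, above Dixon's 95% critical value for 4 samples. It stood apart in the same way in the other variable regions, where it called 75.5% (a gap of 0.889 of the range). Chance alone brings about 1 in 20 groups above this value. The KO minus WT difference in the far variable regions was 15.8 points without it, and with lists of equal length this library called 27.0%, between the 25.7 and 27.1% of the other KO libraries.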

How the results depend on the processing

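Shares and differences below are over the 3347 far variable regions as first chosen. Those beyond 100 kb, and over 50 kb from a gene of any type, are over the regions left there. With lists of equal length, 2115 regions met the rule. Over the 3347, the KO minus WT difference was 7.52 points (ApoE KO cohort) and 0.687 (first cohort). The oxLDL minus untreated difference was -1.13 and 0.0896 points, the last with its sign reversed. KO-sided regions (at least 5 of 6 against at most 1) were 0%, untreated-sided ones 0.0299% and those in all 8 ApoE KO cohort and no first-cohort libraries 0.0299%, while oxLDL-sided ones were 0.0896%. Leaving out the 3 libraries with a mark of their own was chosen after seeing the data. They are the first KO replicate with oxLDL and both untreated WT libraries, so among untreated libraries mark and genotype cannot be told apart. What is left sets 1 KO against 2 WT libraries with oxLDL and 1 oxLDL against 2 untreated KO libraries, unlike the main differences. It gave 24.4 and -17.1 points with full lists and 7.25 and -1.40 with equal length. Beyond 100 kb there were 1780 regions, 0.449% KO-sided (8 regions) and 0.0562% in the ApoE KO cohort only. Over 50 kb from a gene of any type there were 686, with 1.02% KO-sided (7 regions), 0.875% untreated-sided (6 regions), 0% in the ApoE KO cohort only, and first-cohort differences of 2.55 (genotype) and -3.28 points (treatment). Peaks covering 50% of a region gave genotype and treatment differences of 12.5 and -9.31 points in the ApoE KO cohort and 8.56 and -16.1 in the first. They gave 0.239% untreated-sided regions (8 regions), a count also given by a score of at least 30. The cause was not tested beyond what each alternative removes.

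Leaving out each library in turn, with 1 call fewer asked of its group, gave 2447 to 3247 regions by the rule, 0.329 to 5.05% KO-sided (11 to 169 regions), 0 to 0.0896% WT-sided, 0 to 0.209% oxLDL-sided, 0.418 to 4.30% untreated-sided and 0.0896 to 0.120% in the ApoE KO cohort only. The genotype difference was 15.8 to 32.5 points (ApoE KO cohort) and 0.359 to 2.87 (first cohort), and the treatment difference -25.8 to -9.08 and -3.70 to -1.20 points. Omitting the first untreated KO replicate (15.8 and -9.08 points) or the second untreated WT replicate (treatment -11.0) moved an ApoE KO cohort difference by more than 1.5 times. No pairing by replicate number was seen in the calls. Same-numbered libraries had correlations of deviations from their group means of -0.0379 to 0.0315 over 6 pairs of groups. With 2 libraries per group, this cannot show whether they shared an animal or culture. With a replicate block, 0 regions passed an adjusted p of 0.05 for genotype and 0 for treatment, as without it. Depth is unknown, so a missing call may be a region under the caller's threshold.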
